A study of Danio rerio with 4 samples.

Results

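The genes described here encode proteins that package DNA and regulate access to it: histone variants, high mobility group (HMG) proteins, enzymes that add or remove acetyl and methyl marks on histones and DNA, readers of those marks, and remodellers that move nucleosomes. They were chosen by gene symbol, as the genes whose current name begins with one of a set of family stems (hdac, smarc, chd, kdm, kmt, dnmt, hmga, hmgb, hmgn, prmt, brd, cbx and the like). The stems use no expression value, but earlier results of these data were known when they were chosen. This gave 115 genes of the 8793 measured under 1 symbol, represented by 161 of 15502 probe sets. Where a gene had several probe sets, the one with the highest mean signal stood for it.

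The samples were hearts with surrounding tissue drawn by syringe from wild-type zebrafish embryos at 48 hours post fertilization. One group had been kept in 10 μM SU5402, an inhibitor of the fibroblast growth factor (FGF) receptor kinases diluted from a stock in DMSO, and the other group, its siblings, in 1% DMSO. Both groups had 2 replicates with an Affymetrix Zebrafish array apiece, and the design asked how the transcripts of the heart region differ under the inhibitor. The start and length of the treatment, and whether replicates came from separate clutches, are not given in the labels. The p-values set each difference against scatter between these arrays, which may be only technical.

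Nucleosomes, the units of chromatin, must be rebuilt behind every replication fork. Dividing cells therefore need new histones, chaperones that deposit them, and a maintenance system in which Uhrf1 recognises newly copied DNA and recruits the methyltransferase Dnmt1. Other regulators, such as the SWI/SNF and NuRD remodellers and the Polycomb complexes, are not confined to dividing cells and set which genes can be read. In the embryonic heart, remodellers of these families are known to cooperate with cardiac transcription factors.

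Values are given as log2(intensity + 16), a scale that understates differences of dim genes, and differences as SU5402 minus DMSO. Levels of different genes cannot be compared on this scale, since each probe set binds its target differently. All 4 arrays had the same trimmed mean, with similar median intensities, the lowest 172. Signal on the array's 17 Tag controls, probe sets matching no zebrafish transcript, gave a background level at its 95th percentile (7.25 on the log2 scale). Of the 115 genes, 88 lay above it on all 4 arrays and 17 on none. As a check of the labels, 7 of 8 measured FGF-induced genes were lower after SU5402 (list median -1.82), with etv5b at 10.96 and 11.35 in DMSO and at 7.21 and 7.31 after SU5402. Of 10 measured heart muscle markers, 7 lay above background on all arrays, and 10 were higher after SU5402 (summed intensity 8241 to 19254 in DMSO, 36925 to 45600 after SU5402). Markers of other tissue were present as well: all 11 measured neuron markers lay above background on all arrays. Markers of neural crest and mesenchyme were lower after SU5402 in 11 of 12 genes (median -1.34, summed intensity 12230 to 13565 in DMSO and 3748 to 4059 after SU5402). The exception was the neural crest marker foxd3, higher by 1.29 (SE 0.49). Of the 12 genes, 2 lay above background on no array. Markers of endothelium were lower in 4 of 5 (median -0.65) and those of skeletal muscle in 8 of 10 (median -1.16). The endothelium median is the value of a gene above background on no array. With a floor at the background it was -1.11 over 3 genes. The skeletal muscle value rested on DMSO replicate 2, without which 5 of 10 were lower (median -0.13). Skeletal muscle sums were 2597 and 7309 in DMSO replicates 1 and 2, and 3796 and 3827 after SU5402. Only 2 of these 10 genes lay above background on all arrays. The part of these tissues in the values of the lower chromatin genes was not tested.

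In the comparison of SU5402 with DMSO, limma called 0 of the 115 chromatin genes at a threshold of 0.05 on the adjusted p, and 0% of all genes (lowest adjusted p over all probe sets 0.255). At an unadjusted p under 0.05 in limma, 9 genes were lower and 1 was higher after SU5402. The share lower, 7.83%, was near the background of 8.04% over all genes, and the share higher, 0.870%, stood beside a background of 5.31%. Differences of at least 2-fold were found for 5 genes on the lower side (background 6.98%) and 2 on the higher side (background 4.7%). Of the 91 genes above background on average in both groups, 4 were lower and 0 higher by that much; hdac10 and prmt8b were below it in 1 group and h1m on every array. Both SU5402 arrays lay below both DMSO arrays for 33 genes (background 26.3%) and above them for 21 (background 19.3%). The median difference of the 115 genes was -0.18, with quartiles of -0.52 and 0.14, against a median of -0.08 over all genes. Among genes above background on average in both groups, the median was -0.10 for the 91 members and -0.12 for all 5494. With all 4 arrays, the shares on the lower side were thus near those of the whole array. The share higher at an unadjusted p under 0.05 in limma was below its background, on a count of 1 gene.

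The count of 9 lower genes depended on every single array. It is given beside the share of all probe sets in the same setting (6.21% with all arrays, 8.04% with 1 probe set per gene). It was 2 without DMSO replicate 1 (2.54%), 3 without DMSO replicate 2 (3.1%), 22 without SU5402 replicate 1 (8.79%) and 4 when SU5402 replicate 2 was left out (9.61%). The 10 genes with an unadjusted p under 0.05 were hdac10, uhrf1, rbbp7, prmt3, hmgb2a, ing5b, dnmt1, smarcad1a and rbbp9, which were lower, and prmt8b, which was higher. In each of them the groups did not overlap, as in 45.6% of all genes. With 2 arrays against 2, a low p goes with groups that lie apart, so this adds nothing to the p.

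**Figure D1:**
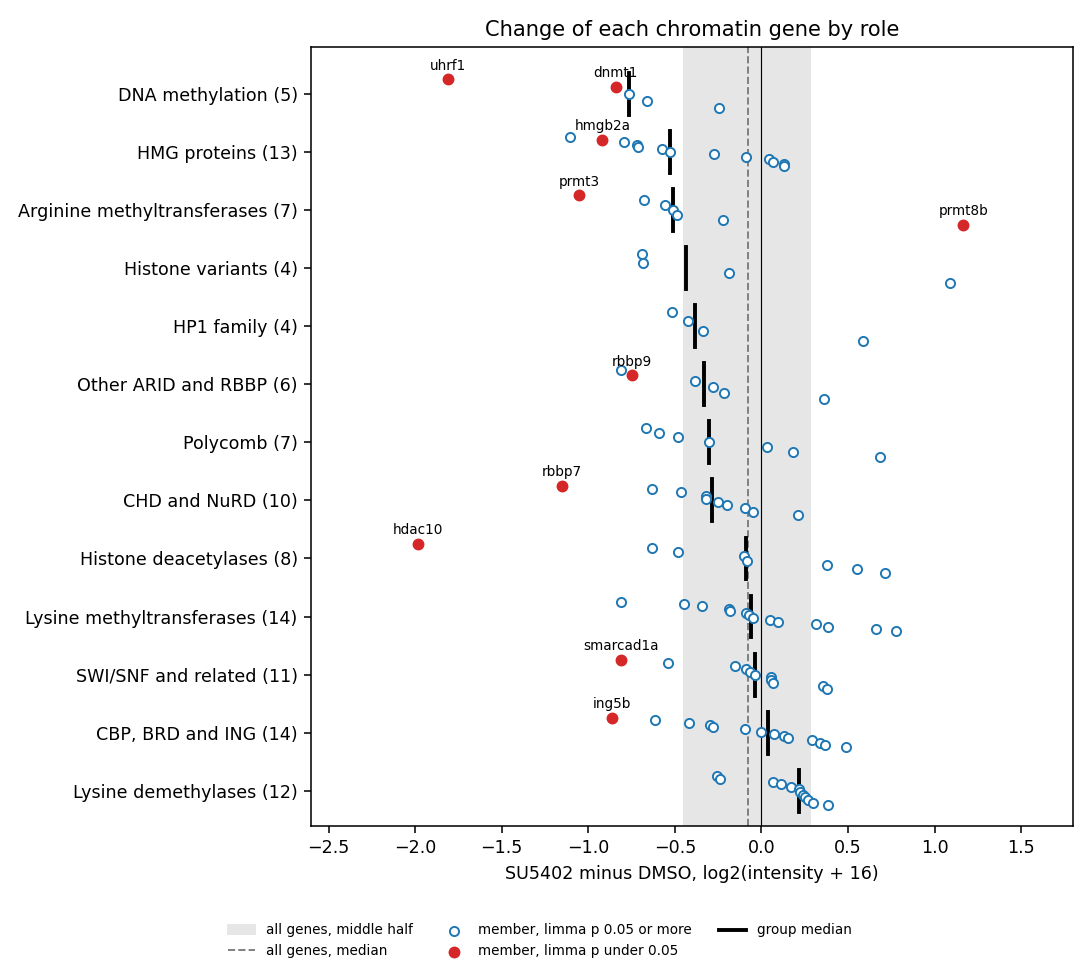
Difference of each of the 115 chromatin genes (circles; filled red where limma's unadjusted p was under 0.05) as SU5402 minus DMSO in log2(intensity + 16), sorted into 13 groups by role, with each group's median as a black bar and the number of genes in brackets. The grey band and dashed line give the range between quartiles and the median of all 8793 genes; the medians run from -0.76 for DNA methylation to 0.22 for the lysine demethylases.

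Of the DNA methylation genes, 5 of 5 were lower after SU5402 (56.2% of all genes were). Their median of -0.76 is the value of a gene above background on no array, and with a floor at the background it was -0.54 over 4 genes. The gene uhrf1, whose product finds half-methylated DNA behind the replication fork, stood at 11.73 and 11.46 in DMSO and at 9.78 and 9.80 after SU5402. Both SU5402 arrays were well below both DMSO arrays and close to each other. It was 3.50-fold lower, a difference of -1.81 with an SE of 0.31 (adjusted p = 0.255 in limma). Its second probe set lay below background on average and was at -0.24.

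The gene of its partner, the maintenance methyltransferase dnmt1, stood at 9.45 and 9.62 in DMSO and at 8.78 and 8.61 after SU5402, again without overlap. The difference was -0.84 (SE 0.30), with an adjusted p of 0.347 in limma. The genes of the de novo methyltransferases, which set new methylation, showed smaller or dimmer differences. The value for dnmt3ba was -0.25 (SE 0.35), and its groups overlapped. For dnmt3bb.2 it was -0.66 (SE 0.35), with neither SU5402 array above background. Its DMSO mean was 1.17-fold above the background level, a bound on the fold that leaves out scatter. The gene dnmt3bb.3 was above background on no array. Without SU5402 replicate 2, dnmt3ba was at 0.05 and the group median at -0.32.

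High mobility group proteins bind DNA or nucleosomes without sequence-specific contacts: HMGA proteins through AT hooks, HMGB proteins by bending DNA, and HMGN proteins on the nucleosome itself. Of 13 such genes, 9 were lower, with a median of -0.53. The groups did not overlap in 6 of the 13 (46.2%), near the background of 45.6% over all genes. The hmgb2 pair had the lowest values. The gene hmgb2a stood at 9.43 and 9.72 in DMSO and at 8.87 and 8.44 after SU5402, a difference of -0.92 (SE 0.33; adjusted p = 0.348 in limma). Its copy hmgb2b stood at 11.69 and 11.35 in DMSO and at 11.20 and 9.64 after SU5402. The groups did not overlap, but SU5402 replicate 2 alone lay far below the others, and the difference of -1.10 (SE 0.55) became -0.32 without it. Its second probe set was above background on no array.

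The 4 probe sets of hmga1a all showed a lower mean after SU5402, from -0.24 to -0.96, and the brightest was at 14.24 and 14.36 in DMSO and at 13.84 and 13.61 after SU5402 (-0.58, SE 0.30). Among the HMGN genes, hmgn1a, hmgn1b and hmgn2 were at -0.79, -0.71 and -0.72 without overlap of the groups, and a second probe set of hmgn1a was at -1.01. Lower as a mean but with overlapping groups was hmgn6 (-0.53). The other members differed by 0.28 or less in either direction: hmgb1a (0.13), hmgb1b (-0.28), hmgb3a (0.04), hmgb3b (-0.09), hmgn3 (0.06) and hmgn7 (0.13). In these 6 genes the groups overlapped. The HMG median was the one most set by a single array, at -0.80 with 13 of 13 lower without SU5402 replicate 1 and at 0.12 with 6 of 13 lower without SU5402 replicate 2.

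Arginine methyltransferases modify histones and many RNA-binding proteins. Of 7 genes, 6 were lower and 1 higher, with a median of -0.51, and in 6 of them, 1 above background on no array, the groups did not overlap (background 45.6%). The gene prmt3, whose product is known in yeast and mammals for methylating a protein of the small ribosomal subunit, stood at 9.28 and 8.70 in DMSO and at 8.12 and 7.75 after SU5402. The difference was -1.05 (SE 0.36), with an adjusted p of 0.324 in limma. The 2 main enzymes of the family, prmt1 for asymmetric and prmt5 for symmetric dimethylation, were at -0.56 (SE 0.34) and -0.51 (SE 0.31), and prmt7 and prmt6 at -0.49 and -0.22. The value of prmt2, -0.68, came from a probe set above background on no array.

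The exception was prmt8b, related to mammalian PRMT8, a membrane-attached enzyme found mainly in brain. It stood at 6.80 and 6.85 in DMSO, below background, and at 8.50 and 7.49 after SU5402. Both SU5402 arrays were higher, unequally so. The measured difference was 1.17 (SE 0.42, adjusted p = 0.344 in limma). It was 0.66 when SU5402 replicate 1 was left out and 1.67 when replicate 2 was. The SU5402 mean was 1.67-fold above the background level. Neuron markers moved in the same direction: 11 of 11 were higher (background 43.8%), with a median of 1.00. At an unadjusted p under 0.05 in limma, 6 of the 11 were higher (background 5.31%). The summed intensity of the 11 was 26558 to 33604 in DMSO and 68893 and 43686 in SU5402 replicates 1 and 2. Their part in the value of prmt8b was not tested.

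**Figure D2:**
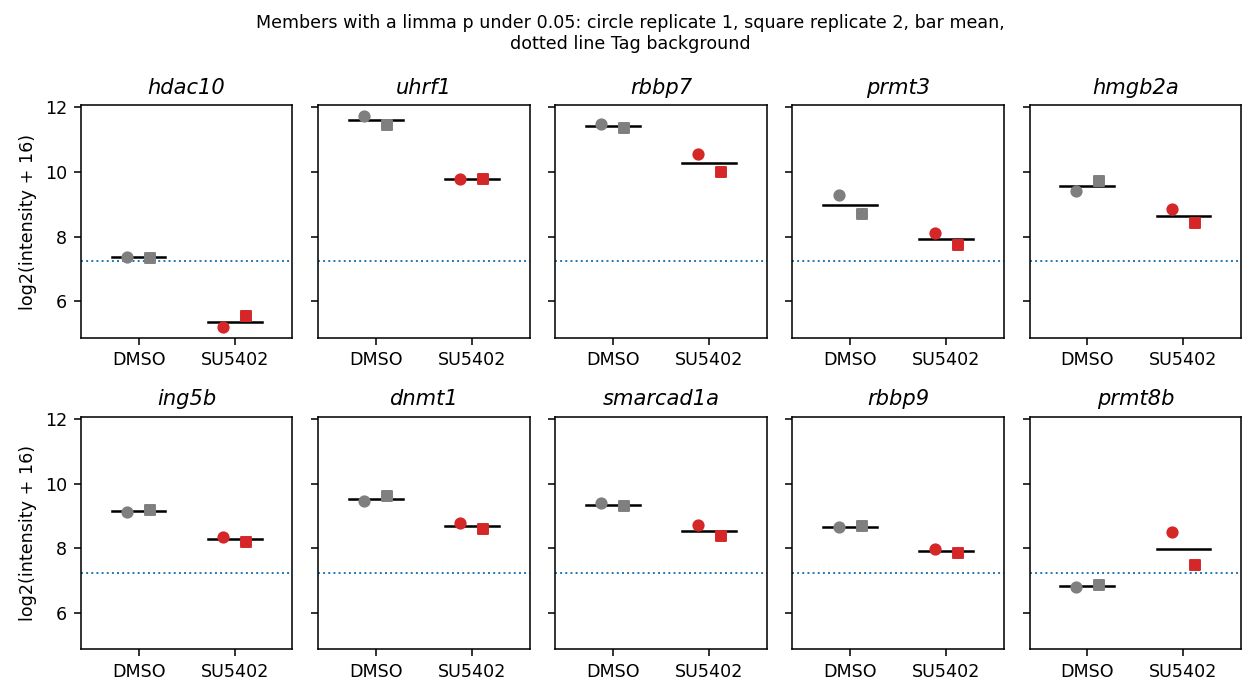
Level of the 10 chromatin genes with an unadjusted limma p under 0.05 in each array, in log2(intensity + 16), with DMSO in grey and SU5402 in red (circle for replicate 1, square for replicate 2, bar for the mean of 2 arrays). The dotted line is the Tag background at 7.25; hdac10 lies below it in both SU5402 arrays and prmt8b in both DMSO arrays, while the other 8 lie above it on every array.

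Histone deacetylases remove acetyl groups and as a rule favour closed chromatin. Of 8 genes, 5 were lower and 3 higher, with a median of -0.09 (0.08 without SU5402 replicate 2). The product of hdac10 acts on polyamines rather than on histones. The gene stood at 7.38 and 7.34 in DMSO, barely above background, and at 5.20 and 5.55 after SU5402, below it. The measured difference was -1.98 (SE 0.31, adjusted p = 0.255 in limma), but neither SU5402 array was above background. The DMSO mean was 1.08-fold above the background level, which bounds the fold only loosely and leaves out scatter.

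The gene of hdac1, the main class I enzyme of NuRD and known to be needed for cardiac and neural development in zebrafish, stood at 12.92 and 13.35 in DMSO and at 13.43 and 12.67 after SU5402. Its groups overlapped fully (-0.08, SE 0.39). The values of hdac3 and hdac8, the other class I members, were -0.48 (SE 0.37) and -0.10 (SE 0.30), and that of the tubulin deacetylase gene hdac6 was -0.63 (SE 0.31). The class IIa genes hdac4 and hdac9b, whose products bind MEF2 factors in muscle, were at 0.55 and 0.71, and hdac11 was at 0.38. These 3 did not overlap between groups, as in 6 of the 8 deacetylase genes (background 45.6%). Yet neither hdac9b nor hdac11 was above background on any array. The gene hdac4 was so on 1, with 6.84 and 6.71 in DMSO and 7.09 and 7.56 after SU5402. Its SU5402 mean was 1.06-fold above the background level, beside an SE of 0.33 for its difference.

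The CHD remodellers and the NuRD complex join chromatin remodelling to deacetylation. Of 10 genes, 9 were lower, 2 of them above background on no array, with a median of -0.29. Without SU5402 replicate 2, 6 of 10 were lower and the median was -0.10. The histone-binding subunit gene rbbp7 stood at 11.50 and 11.36 in DMSO and at 10.56 and 10.00 after SU5402, so both SU5402 arrays lay lower. The difference was -1.15 (SE 0.34), 2.22-fold, with an adjusted p of 0.279 in limma. Its close relative rbbp4, shared by NuRD, Polycomb and the assembly factor CAF-1, stood at 11.62 and 11.43 in DMSO and at 11.44 and 10.36 after SU5402. Here the groups overlapped, and the difference of -0.63 (SE 0.44) was -0.09 without SU5402 replicate 2. The NuRD motor genes chd4a and chd4b were at -0.09 and -0.05 and mta2 at -0.32, each with overlapping groups. The gene chd7, which in humans causes CHARGE syndrome with its heart and neural crest defects, was at -0.47 (SE 0.30) without overlap, and its second probe set was at -0.56.

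Among the histone genes, h2ax, whose variant marks DNA breaks, stood at 10.09 and 9.79 in DMSO and at 9.47 and 9.04 after SU5402 (-0.69, SE 0.33). The H2A.Z gene h2az2b was also at -0.69, but with one low array: 12.90 and 12.59 in DMSO against 12.74 and 11.37 after SU5402. The H3.3 gene h3f3d was at -0.19 (SE 0.34). The linker histone gene of oocytes and early embryos, h1m, was above background on no array, at 4.57 to 6.77, so its nominal 1.09 is not a measured level.

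Polycomb and HP1 proteins form repressive chromatin. Of 7 Polycomb genes, 4 were lower and 3 higher, with a median of -0.30 (0.06 without SU5402 replicate 2). The methyltransferase gene ezh2 stood at 10.90 and 11.02 in DMSO and at 11.02 and 9.94 after SU5402. SU5402 replicate 1 thus lay at the DMSO level, and the difference of -0.48 (SE 0.43) was 0.06 without SU5402 replicate 2. Its partner genes eed and suz12b were at -0.30 and 0.18, suz12a at -0.59 on a probe set above background on no array, and the reader gene cbx2 at -0.67 (SE 0.33) without overlap. Of the 4 HP1 genes, 3 were lower, with a median of -0.38 (-0.17 without SU5402 replicate 2): cbx3b (-0.51) and cbx5 (-0.43) without overlap of the groups and cbx1a (-0.34) with it. The fourth, cbx1b, stood at 8.48 and 8.54 in DMSO and at 9.52 and 8.67 after SU5402 (0.59, SE 0.39).

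For the SWI/SNF and related remodelling genes the median difference was -0.04, with 6 of 11 lower, and the median size regardless of sign was 0.09, against 0.37 over all genes. The SU5402 arrays lay on either side of DMSO: the median was -0.30 with 9 of 11 lower when replicate 1 was left out and 0.14 with 3 of 11 lower when replicate 2 was. The motor gene smarca4a, which is needed for heart development in zebrafish and mouse, stood at 11.76 and 11.68 in DMSO and at 11.95 and 11.41 after SU5402 (-0.04, SE 0.34). Core subunit genes smarcb1a and smarce1 were at -0.07 and 0.05. In all 3 the groups overlapped. The groups did not overlap in 2 of the 11 genes (18.2%, background 45.6%), both of which encode motors outside the SWI/SNF complex. One was smarcad1a, at 9.40 and 9.30 in DMSO and 8.72 and 8.37 after SU5402 (-0.81, SE 0.31; adjusted p = 0.368 in limma). The other was the ISWI gene smarca5, at -0.54 (SE 0.33).

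Lysine demethylases stood on the other side of 0. Of 12 genes, 10 were higher after SU5402 (background 43.8%), with a median of 0.22, and 0 had an unadjusted p under 0.05 in limma in either direction. Their range was narrow, from -0.26 to 0.38, beside a median SE of 0.33. The upper end is the value of a gene above background on no array. With a floor at the background, 9 of 10 genes were higher, with a median of 0.22. The genes kdm1a, kdm5bb and kdm6ba were at 0.22, 0.17 and 0.22 (SE 0.32, 0.35 and 0.30), and only kdm6ba of the 3 had groups that did not overlap. The median was lower in each setting that left out 1 array, from 0.08 without SU5402 replicate 1 (8 of 12 higher) to 0.16 without DMSO replicate 2. Lysine methyltransferase genes were mixed, with 8 of 14 lower and a median of -0.06 (0.10 without SU5402 replicate 2). At the edges of this group were kmt2a (0.78) and setdb2 (-0.81), both above background on no array, and kmt2e (0.66, SE 0.33), which stood at 10.06 and 10.33 in DMSO and at 10.63 and 11.08 after SU5402. A second probe set of kmt2e, below background on average, was at 0.05.

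Acetyltransferases of the CBP/p300 family, bromodomain proteins and ING proteins write or read active marks. Of 14 genes, 7 were lower and 7 higher, with a median of 0.04. Here too the SU5402 arrays differed: 9 of 14 were lower when replicate 1 was left out (median -0.35) and 12 of 14 higher when replicate 2 was (median 0.22). The lowest was ing5b, a subunit gene of histone acetyltransferase complexes, at 9.13 and 9.17 in DMSO and at 8.36 and 8.21 after SU5402. Replicates lay close together in both groups (-0.86, SE 0.30; adjusted p = 0.332 in limma). The coactivator gene crebbpa and the bromodomain gene brd2a were at 0.34 and 0.37 without overlap. Of the 3 further probe sets of brd2a, 1 lay above background and was at 0.13. Those above background on no array were at 0.25 and -1.21, and the average over all its probe sets was -0.11. Of the 6 remaining genes, rbbp9, a serine hydrolase gene that carries an RB-binding name rather than a chromatin role, stood at 8.64 and 8.69 in DMSO and at 7.99 and 7.85 after SU5402 (-0.75, SE 0.30; adjusted p = 0.379 in limma). Its second probe set was above background on no array. The DNA-binding gene arid3b was at -0.81 (SE 0.37).

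A feature that the choice of genes did not use was how far the 2 SU5402 arrays differed from each other. Of the 115 genes, 86 were lower in SU5402 replicate 2 than in replicate 1 (74.8%), against 59.9% of all genes. Their median gap was 0.43, against 0.15 over all genes. Between the DMSO arrays, 61 of 115 were lower in replicate 2, with a median gap of 0.03. Against the DMSO mean, the median of the 115 genes was 0.08 in SU5402 replicate 1 and -0.40 in replicate 2, so the direction of the class median rested on SU5402 replicate 2.

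The gap was not shared equally by the groups. All 13 HMG genes, 7 of 7 arginine methyltransferase genes, 4 of 4 histone and 4 of 4 HP1 genes, 9 of 11 SWI/SNF genes and 13 of 14 acetyl writer and reader genes were lower in SU5402 replicate 2. The same held for 3 of 8 deacetylase and 7 of 14 lysine methyltransferase genes. In uhrf1 the SU5402 arrays were nearly equal, at 9.78 and 9.80. Markers of other tissue differed between the same arrays. The 8 measured neural progenitor markers were lower in SU5402 replicate 2, by a median of 0.77, with summed intensities of 16161 in replicate 1 and 8941 in replicate 2, against 10980 to 13989 in DMSO; 7 of the 8 lay above background on all arrays. The 11 neuron markers were lower in replicate 2 by a median of 0.95. All 6 epidermis markers were higher there, with summed intensities of 14982 in replicate 1, 42661 in replicate 2 and 33892 to 35480 in DMSO. The 7 leukocyte markers summed to 1633 in replicate 1 and 10120 in replicate 2, against 1385 to 1462 in DMSO. Most of the sum in replicate 2 came from the single gene mmp9, at 9.94 in replicate 1 and 13.14 in replicate 2. Of the 7, 4 lay above background on no array, and 1, lyz (8.90 and 8.87), was lower in replicate 2. The gap was also found outside the chromatin genes. Lower in SU5402 replicate 2 were 23 of 25 DNA replication and cell division genes (median gap 0.40) and 16 of 19 assembly genes (0.51). So were 10 of 13 cohesin and condensin genes (0.33) and 8 of 10 heart muscle markers (0.42). Fewer were lower among neural crest and mesenchyme markers (5 of 12), skeletal muscle markers (2 of 10) and FGF-induced genes (1 of 8). Erythroid markers were lower in 1 of 7. The part of the tissue markers in the gap between the SU5402 arrays was not tested. Fewer cells of a type and less RNA per cell cannot be told apart in such samples.

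**Figure D3:**
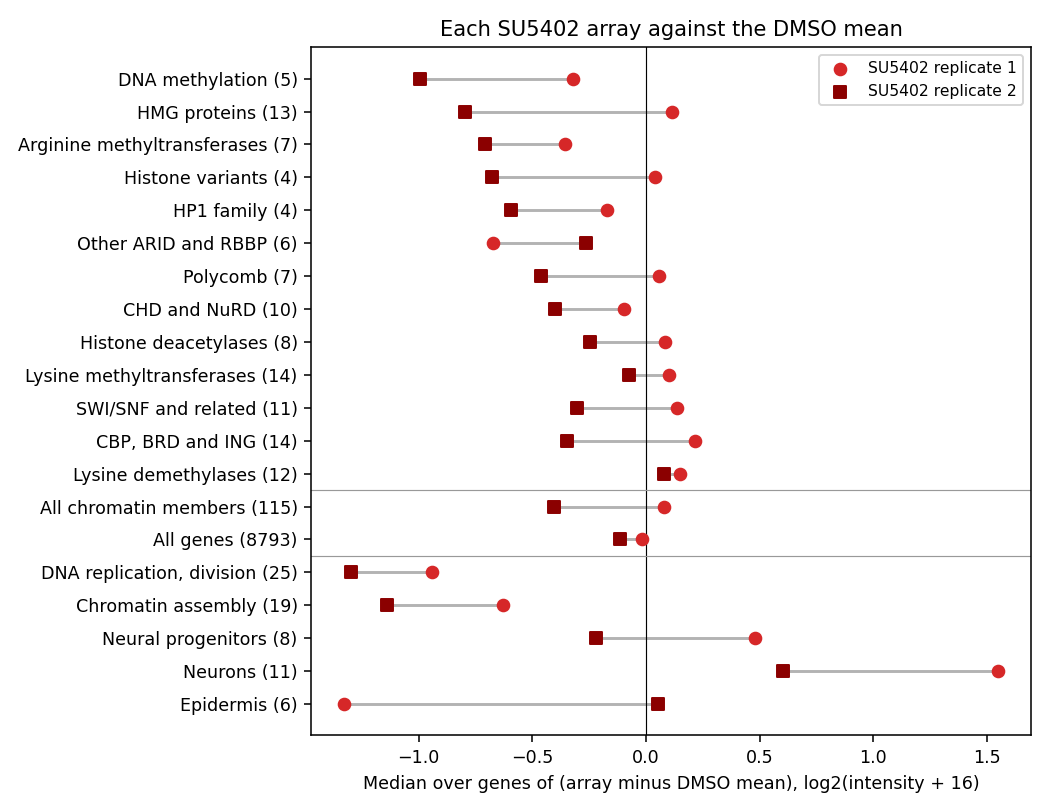
Median over the genes of each group of the difference between 1 SU5402 array and the mean of the DMSO arrays, in log2(intensity + 16), with replicate 1 as circles and replicate 2 as squares and the number of genes in brackets. For the 115 chromatin genes the medians are 0.08 and -0.40, while the DNA replication and chromatin assembly lists lie below 0 in both arrays and the neuron list above 0 in both.

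Zebrafish often carry a pair of copies of a gene, named a and b, and 14 such pairs were measured. The copies shared the sign of their difference in 9 pairs and had opposite signs in 5, and the median distance between copies was 0.16. The hmgb2 and hmgn1 pairs lay together on the lower side (-0.92 and -1.10; -0.79 and -0.71). The widest distances were those of cbx1a and cbx1b (-0.34 and 0.59) and of suz12a and suz12b (-0.59 and 0.18), of which suz12a was above background on no array. Within each array, the value of cbx1a minus that of cbx1b was 3.01 and 2.37 in DMSO and 1.59 and 1.93 after SU5402, without overlap. Such differences did not overlap in 6 of the 14 pairs, cbx1 included, beside 45.6% of all genes for the values of single genes. No share over other gene pairs was made, so the count is not a result about these copies. With 2 arrays against 2, an exact test of the difference in a single pair could not reach a p under 0.05, and none was run. Copies with near-identical sequence can share signal on short probes.

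**Figure D4:**
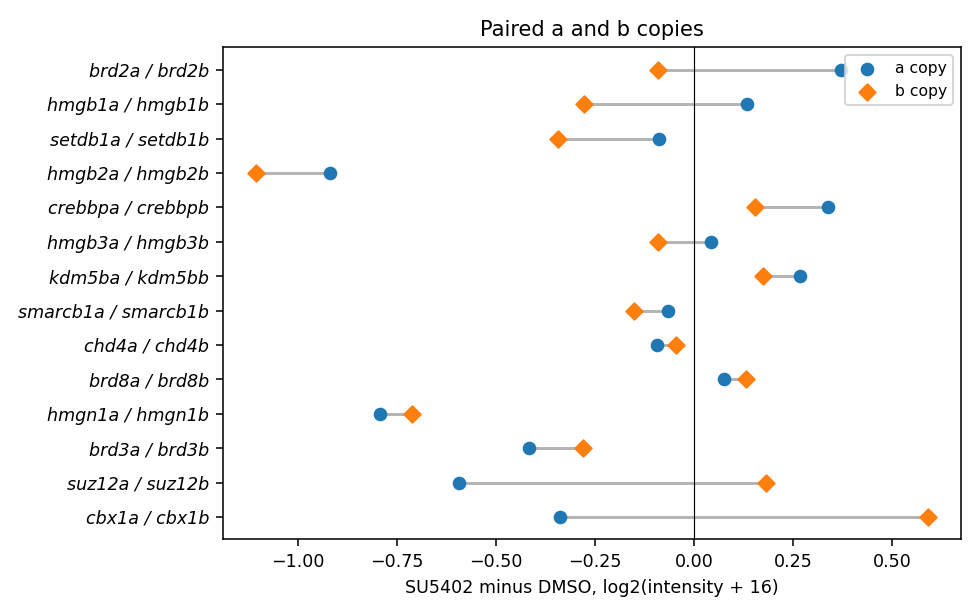
Difference between SU5402 and DMSO in log2(intensity + 16) for the a copy (circle) and the b copy (diamond) of 14 gene pairs, joined by a line. The copies lie on the same side of 0 in 9 pairs, and cbx1 and suz12 show the widest distances.

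Of the 32 chromatin genes with more than 1 probe set, 19 had probe sets that all shared 1 sign. Of the 46 further probe sets, 15 lay above background on average, and 13 of these had the sign of the one used. Below background this was so for 19 of 31.

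Genes that work beside the 115 but lie outside the name stems were described from lists, chosen with earlier results of these data known. Over all genes, 56.2% were lower after SU5402, and 8.04% were so at an unadjusted p under 0.05 in limma. Among histone chaperones and chromatin assembly factors, 19 of 19 measured genes of 24 listed were lower, with a median of -0.88. At that p, 11 of the 19 were lower. The assembly factor gene chaf1b encodes a CAF-1 subunit that places new histones at the replication fork. It stood at 7.84 and 8.17 in DMSO and at 6.68 and 6.56 after SU5402, below background. Its DMSO mean was 1.70-fold above the background level. The gene of hells, a remodeller needed for DNA methylation, stood at 8.88 and 8.51 in DMSO and at 7.55 and 6.81 after SU5402 (-1.51, SE 0.38), above background on 1 of those arrays. The nucleophosmin gene npm1a was at -1.27 (SE 0.35).

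Of 13 measured cohesin and condensin genes, 11 were lower, with a median of -0.53. At an unadjusted p under 0.05 in limma, 4 of the 13 were lower (background 8.04%). The condensin genes smc4, smc2 and ncaph were at -1.23, -1.25 and -1.40. Genes of Polycomb complex 1 outside the cbx family (6 of 8 lower, median -0.20, with pcgf6, above background on 1 array, lower at an unadjusted p under 0.05) and of acetyltransferases and sirtuins (4 of 7 lower, median -0.18, with sirt3 higher at that p on a probe set above background on no array) had medians nearer to that of all genes. Of the DNA replication and cell division genes, 23 of 25 measured were lower, 15 at an unadjusted p under 0.05 in limma, with a median of -1.08. Their summed intensity was 32200 to 36314 in DMSO and 11758 to 15692 after SU5402, and 20 of the 25 lay above background on all arrays. Whether their part accounts for the values of uhrf1, dnmt1, hmgb2a and the assembly genes was not tested.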

How the data were processed

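Probe set intensities on a linear scale were deposited by the authors for 4 arrays, and 0 other columns were present. No source used here names the summarisation algorithm or software. Each array has a mean of 500.1 after trimming 2% at each end. No depth exists for arrays, and the number of arrays limits the precision. Probe sets were named from the platform annotation, updated through Entrez identifiers (RefSeq GRCz12tu table); of 15502 tested, 10795 had 1 symbol, 135 several and 4572 none, and 115 control probe sets were left out. All 115 chromatin genes matched a current gene.

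Intensities were taken to log2(value + 16) and fitted with limma 3.58.1 (R 4.3.3; lmFit, eBayes, treatment as the only term), two-sided, with Benjamini-Hochberg adjustment over all probe sets. The fit was also run on data simulated from its own variance model with independent errors. Such a run cannot show how shifts of a whole array affect the fit.

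The members, groups and lists were chosen with earlier results of these data known. The text names up to 12 genes each way with the largest difference, of those whose groups do not overlap and whose unadjusted p is under 0.05 (9 and 1), and 37 measured members chosen for their roles, 44 in all; a further 24, chosen after their values were seen, complete small families or mark the edge of a group. From lists outside the 115, up to 3 genes with the lowest p were named, with foxd3 and lyz named besides. Probe, promoter and protein sequences were not used here, so the planned promoter motif counts were not made. Alternatives were 2 pseudocounts, removal of the dimmest 25% or 50%, a floor at the Tag background, 3 normalisations, a replicate block, 2 variance models, averaging all probe sets of a gene, and leaving out each array.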

Additional observations from a re-analysis of the deposited data

How the results depend on the processing

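Under the 16 alternatives, 0 members passed limma at an adjusted p under 0.05. The count of members lower at an unadjusted p under 0.05 in limma was 15 with a pseudocount of 64 (6.91% of all probe sets) in place of 9 (6.21%), and ran from 2 to 22 with 1 array left out (2.54% to 9.61%). Shares in this section are over all probe sets, while the members have 1 probe set per gene. With 1 probe set per gene, 8.04% of all genes were lower and 5.31% higher in the main setting. The count of members higher at that p was 1, beside 6.74% of the probe sets tested. This count was 2 with a pseudocount of 1 (6.13%) and 0 with the dimmest 50% of probe sets left out (8.67%). With a floor at the Tag background it was 0 (7.83%). With 1 array left out it ran from 0 to 4 (3.04% to 9.82%). The member median of -0.18 ran from -0.40 (without SU5402 replicate 1) to 0.080 (without SU5402 replicate 2). Leaving out an array makes 1 group a lone array, taken to vary like the other. With the replicate number as a block, 12 members were lower (8.09% of all probe sets) and 2 higher (8.57%) at that p and 0 were called. The 2 numbers are not stated to mark a shared clutch or day; deviations of same-numbered arrays correlated at 0.28, which with 2 pairs is 1 comparison.

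Of 68 named members, 47 kept their sign in all settings. Outside single-array settings, 787 of 792 values kept it. When all probe sets of a gene were averaged, brd2a went from 0.37 to -0.11, so its sign depended on the probe sets used. The other exceptions were near 0. They were chd4b (0.081) in that setting, chd4b (0.0035) and smarca4a (0.011) with median centring, and smarce1 (-0.0004) with quantile normalisation. With 1 array left out, 243 of 272 kept it, and values on both sides of 0 were found for chd4a (-0.39 to 0.21), chd4b (-0.18 to 0.082), dnmt3ba (-0.55 to 0.051), eed (-0.63 to 0.028), ezh2 (-1.02 to 0.058), h3f3d (-0.46 to 0.088), hdac1 (-0.46 to 0.30), hmgb1a (-0.33 to 0.59), hmgb1b (-0.80 to 0.24), hmgb3a (-0.40 to 0.49), hmgb3b (-0.40 to 0.22), hmgn3 (-0.38 to 0.51), hmgn6 (-1.17 to 0.12), hmgn7 (-0.24 to 0.50), kdm5bb (-0.15 to 0.50), mta2 (-0.72 to 0.08), prmt6 (-0.78 to 0.33), smarca4a (-0.31 to 0.23), smarcb1a (-0.30 to 0.17) and smarce1 (-0.28 to 0.39). The cause was not tested.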
